A study of Mus musculus with 16 samples.

Results

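The step from the second stage of hemogenic endothelium (HE2) to blood progenitors was examined in wild-type mouse cells, as the surface receptor Tie2 is lost. The members are 4 of the 16 arrays of the series, taken by genotype and population from the sample labels: 2 arrays of HE2 and 2 arrays of progenitors, all from Sp1+/+ cells and all on 1 slide per the file headers. The study differentiated mouse embryonic stem (ES) cells toward blood and compared wild-type cells with cells that carry a truncated Sp1, a widely expressed transcription factor, without its DNA-binding domain (Sp1-/-). It profiled 8 groups of 2 arrays, 4 populations in each genotype, on one-color Agilent mouse gene expression arrays. The populations were Flk1+ cells of embryoid bodies, a first (HE1) and second (HE2) hemogenic endothelium, and progenitors. The groups compared here are labelled E14, strain C57BL/6 and Sp1 +/+ wild type, and the sources used here name no agent that was given to 1 group alone. Both come from 1 ES cell line in culture, so that they stand for differentiation in a dish and not for an embryo. Flk1+ cells were grown in blast culture and sorted on the second day, with floating and adherent cells combined. HE2 was sorted as KIT+ CD41+ Tie2+ and progenitors as KIT+ CD41+ Tie2-, so that the groups differ in the gate on Tie2 alone.

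In the embryo, the first blood stem and progenitor cells arise from a specialized endothelium that lines certain vessels. Its cells lose their junctions, round up and take on blood identity in a process called the endothelial-hematopoietic transition. The factor RUNX1 is required for that transition, and GFI1 and GFI1B act downstream of it to shut off endothelial genes. Tie2, the product of Tek, is a receptor tyrosine kinase of endothelial cells and of some blood stem cells. Its main activating ligand is angiopoietin 1, and the phosphatase VE-PTP, encoded by Ptprb, counteracts it.

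The RNA of the sorted proteins was checked first. Tek read 10.52 and 11.45 in HE2 replicates 1 and 2 and 9.62 and 8.4 in progenitor replicates 1 and 2, as log2 intensity, the unit of every level given here. Both HE2 arrays lay above both progenitor arrays, and Tek fell by 1.98 ± 0.47 on the log2 scale, 3.93-fold (limma, adjusted p = 0.0499). Each ± given here is the SE of that fit, which pools the spread over all 8 groups of 2 arrays. Where the HE2 or progenitor replicates lie far apart, it is smaller than the spread of those 4 arrays would give. Tek RNA thus remained measurable in cells gated as Tie2-, at a level 3.93-fold lower. Groups without overlap, in either direction, were found in 45.9% of all genes tested, and later remarks of this kind are read against that share. Kit, the receptor for stem cell factor, read 13.28 and 12.74 in HE2 and 13.21 and 12.88 in progenitors, a difference of 0.04 (limma, adjusted p = 0.986). Itga2b, which encodes CD41, read 12.21 and 11.95 and 11.92 and 11.41, a difference of -0.41 (limma, adjusted p = 0.687). Neither of the proteins on which both sorts were positive was called at the RNA level. Without HE2 replicate 2 or without progenitor replicate 2, Tek lost its call.

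Because Tek defines the gate, the 250 bases before its transcription start are shown, as RefSeq gives them for the mouse assembly GRCm38.p6 (chr4:94739039-94739288, plus strand). Capitals mark the word ACAAAG, one of 2 searched for as SOX words (ACAATG and ACAAAG, on both strands), which starts 26 bases before the transcription start and overlaps no other word searched. Of all 32851 promoters of the RefSeq table, cut to the same length, 25.2% held a SOX word.
Tek: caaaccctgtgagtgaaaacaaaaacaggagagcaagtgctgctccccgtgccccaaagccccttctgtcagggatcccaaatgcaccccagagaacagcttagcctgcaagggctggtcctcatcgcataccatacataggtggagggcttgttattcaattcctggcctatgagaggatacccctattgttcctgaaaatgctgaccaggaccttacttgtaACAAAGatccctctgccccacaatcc

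Between HE2 and progenitors, 379 genes rose and 270 fell among 37154 genes tested, of which 20115 carried a gene symbol. Calls required an unadjusted p of 0.01 and a change of 2-fold, which are the thresholds of the study's methods, with variances shared over all 16 arrays in limma. Those calls are 1.02% of the genes tested for rises and 0.727% for falls, and the lists of genes given next are read against these shares. The lists hold only genes with a symbol. Of the 20115 such genes, 340 rose and 239 fell, which are somewhat larger shares. With only probes well above background in HE2 or progenitors, 27705 genes were tested, and 379 rose and 273 fell, which are larger shares as well. With the p adjusted over all genes at 0.05 in place of 0.01 unadjusted, 339 rose and 180 fell. A p of 0.01 alone would pass 372 genes in the absence of any difference, and the adjusted p of a called gene reached 0.148. The median difference over all genes was -0.01. Where a called gene had further probes on the array, 178 of 192 such probes (92.7%) moved in the same direction, some of them by less than 2-fold. The series' design text calls the replicates independent, whereas a supplementary legend speaks of technical replicates, and the p-values cover only the spread between these arrays. On the 4 arrays, 67.9% to 70.9% of the probes were well above background, no spot was saturated, and the lowest probes well above background read 5.97 to 6.1. The median SD between replicates was 0.099 in HE2 and 0.0707 in progenitors.

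**Figure D1:**
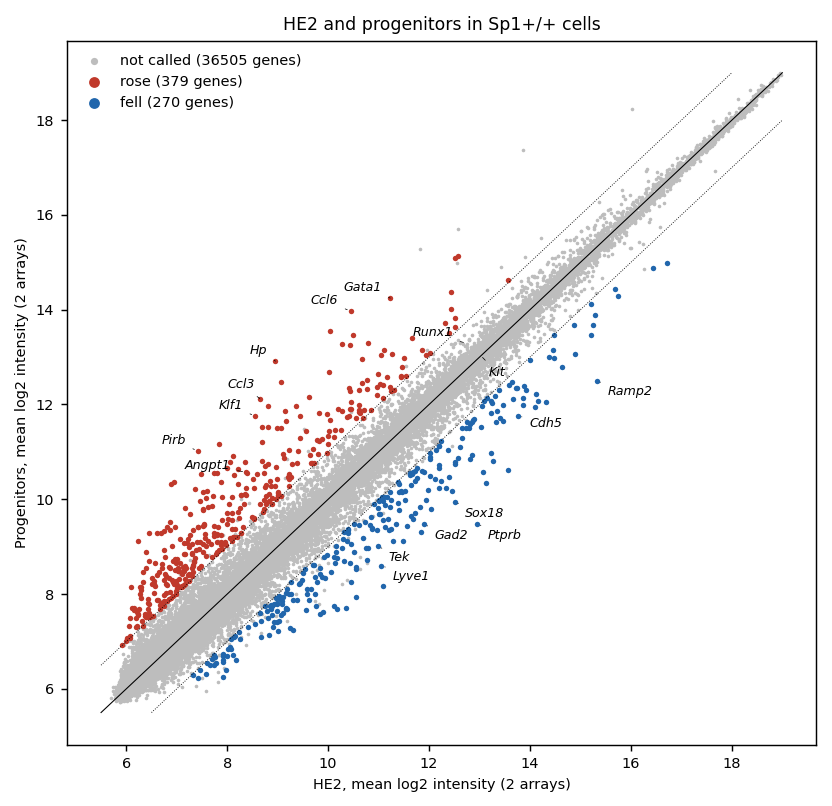
Mean log2 intensity of each gene in HE2 (x axis) and in progenitors (y axis), 2 arrays each, with 1 point per gene. Red points are the 379 genes that rose and blue points the 270 that fell, and the dotted lines mark a 2-fold difference. Kit lies on the diagonal, Tek, Ptprb and Sox18 lie below it, and Hp, Pirb, Ccl6 and Gata1 lie above it.

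Of the 15 largest rises, 4 belonged to the gene lists used below, and the largest rises were outside them. Hp, which encodes the hemoglobin-binding plasma protein haptoglobin, read 9.42 and 8.49 in HE2 and 12.91 and 12.92 in progenitors and rose 15.6-fold. Pirb, an inhibitory immunoglobulin-like receptor, went from 7.52 and 7.31 to 10.63 and 11.41, a rise of 3.6 ± 0.23 (limma, adjusted p = 2.93e-05), although its probe may also read the near-identical Pira genes. Chemokine genes, whose products attract leukocytes, took the next places. Ccl6 read 10.54 and 10.35 against 13.68 and 14.26, a rise of 3.52. Ccl9 rose by 3.5. Ccl3 read 8.5 and 8.79 against 11.65 and 12.6, a rise of 3.48. Others were Igsf6 (3.44), Pla2g7 (3.42), which encodes a secreted phospholipase, Klf1 (3.21), the myosin gene Myo1g (3.16), the amino acid transporter gene Slc38a5 (3.04), Gata1 (3.02), the signaling adaptor gene Tyrobp (3.0) and Cpne7 (2.98). For Pla2g7, another probe differed by 1.755. Ifitm6, an interferon-inducible gene, was not well above background on either HE2 array (6.19 and 6.27) and read 8.79 and 9.43 in progenitors, at least 7.36-fold higher. That bound sets the mean of the progenitor arrays against, on each HE2 array, the higher of the probe's own signal and the lowest signal of a probe well above background. These genes were ranked by their change, so that the sizes describe the extremes and are not a test.

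Of the 15 largest falls, 8 belonged to the lists of endothelial receptors and factors. Ptprb fell most, by 3.48, and Ramp2, Sox18, Bcl6b, Cd93, Icam2, Lyve1 and Cldn5 are described with those lists. The other 7 belonged to no list. Hoxb5, a homeobox gene, fell by 2.63. Gimap6, a GTPase gene first known from the immune system, fell by 2.6, and Oit3 by 2.53. Gad2, which encodes an enzyme that makes the transmitter GABA, read 11.8 and 11.99 in HE2 and 9.84 and 9.1 in progenitors and fell by 2.42. Myzap fell by 2.37. Cyp26b1, whose product breaks down retinoic acid, read 12.23 and 10.73 against 9.65 and 8.61 and fell by 2.35. Tcf15, a helix-loop-helix factor of early mesoderm, fell by 2.27. Gimap6, Gad2, Myzap and Tcf15 were called in every fit that left out 1 array. Hoxb5 and Oit3 lost their calls without HE2 replicate 2 or progenitor replicate 2, and Cyp26b1 without HE2 replicate 1 or progenitor replicate 2.

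Endothelial receptors and junction genes formed the list with the most falls. Of 54 tested, 28 fell and 1 rose, against 0.727% and 1.02% of all genes, and the median difference was -1.37 against -0.01 over all genes. Tek, the gene of the protein that the gate separates, is counted among the 28. The falls took in the machinery around Tie2 itself. Ptprb, which encodes VE-PTP, read 12.41 and 13.49 in HE2 and 10.68 and 8.27 in progenitors, 11.1-fold lower (log2 -3.48 ± 0.60; limma, adjusted p = 0.0106). A further probe of Ptprb differed by -2.275. Tie1, the partner receptor of Tie2, read 13.26 and 13.42 against 12.25 and 11.47, 2.79-fold lower. The call of Tie1 was lost without HE2 replicate 1, HE2 replicate 2 or progenitor replicate 2. Angpt1, which encodes the activating ligand of Tie2, was the single member that rose, from 8.71 and 8.04 in HE2 to 10.59 and 10.55 in progenitors, 4.58-fold (log2 2.19 ± 0.33; limma, adjusted p = 0.00522). Both progenitor arrays lay above both HE2 arrays. Angpt2, which encodes the other angiopoietin of the list, read 6.63 and 7.31 against 6.95 and 6.62, a difference of -0.18 that was not called. The receptor, its partner and its phosphatase thus had less RNA in progenitors, and of these ligands Angpt1 alone was called. In such bulk samples, fewer cells of a type and less RNA per cell cannot be told apart.

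Adhesion and junction genes fell with the receptors. Cdh5, which encodes the junction protein VE-cadherin, read 13.27 and 14.26 in HE2 and 12.29 and 11.23 in progenitors and fell 4.01-fold (limma, adjusted p = 0.0335). Cldn5, a tight junction claudin, read 8.91 and 10.88 against 8.19 and 7.07, 4.81-fold lower. Icam2, an adhesion molecule of endothelium, read 12.42 and 14.11 against 11.98 and 9.62. In each of these genes HE2 replicate 2 was highest and progenitor replicate 2 lowest. Ramp2, a subunit of the adrenomedullin receptor, showed the widest spread, 14.53 and 16.11 against 14.13 and 10.86, and its fall of 2.83 ± 0.82 had an adjusted p of 0.109 in limma. Cd93, a lectin-like surface receptor, fell by 2.48, and Mmrn2, which encodes a matrix protein that binds it, fell by 2.23. Lyve1, the hyaluronan receptor known from lymphatic and embryonic vessels, was far tighter, at 10.91 and 11.2 in HE2 and 8.85 and 8.35 in progenitors. It fell by 2.46 ± 0.17 (limma, adjusted p = 4.66e-05), the smallest adjusted p of the list. Vascular endothelial growth factor (VEGF) receptors did not move together. Flt1 read 12.49 and 13.55 against 11.79 and 11.27 and fell by 1.49, and Flt4 fell by 1.18, as did the co-receptor gene Nrp2, by 1.4. Kdr, which encodes Flk1, the receptor by which the starting cells were chosen, read 13.99 and 13.73 in HE2 and 13.77 and 13.56 in progenitors, a difference of -0.2 that was not called (limma, adjusted p = 0.849). Pecam1, another common endothelial marker, read 10.2 and 10.77 against 9.99 and 9.88, a difference of -0.54 that was not called. Robo4 differed by -2.12 and was not called, with HE2 arrays at 9.36 and 11.92. Nos3, the endothelial nitric oxide synthase gene, differed by -1.52 and was not called either, with HE2 arrays at 9.72 and 11.7.

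The number of endothelial calls depended on single arrays. It was 11 without HE2 replicate 2, 15 without progenitor replicate 2, 34 without HE2 replicate 1 and 32 without progenitor replicate 1. The members called in every one of these fits were Ptprb, Lyve1, Plvap, Egfl7, Eng, Esam, Emcn, Aplnr, Plxnd1, She and Tspan18.

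**Figure D2:**
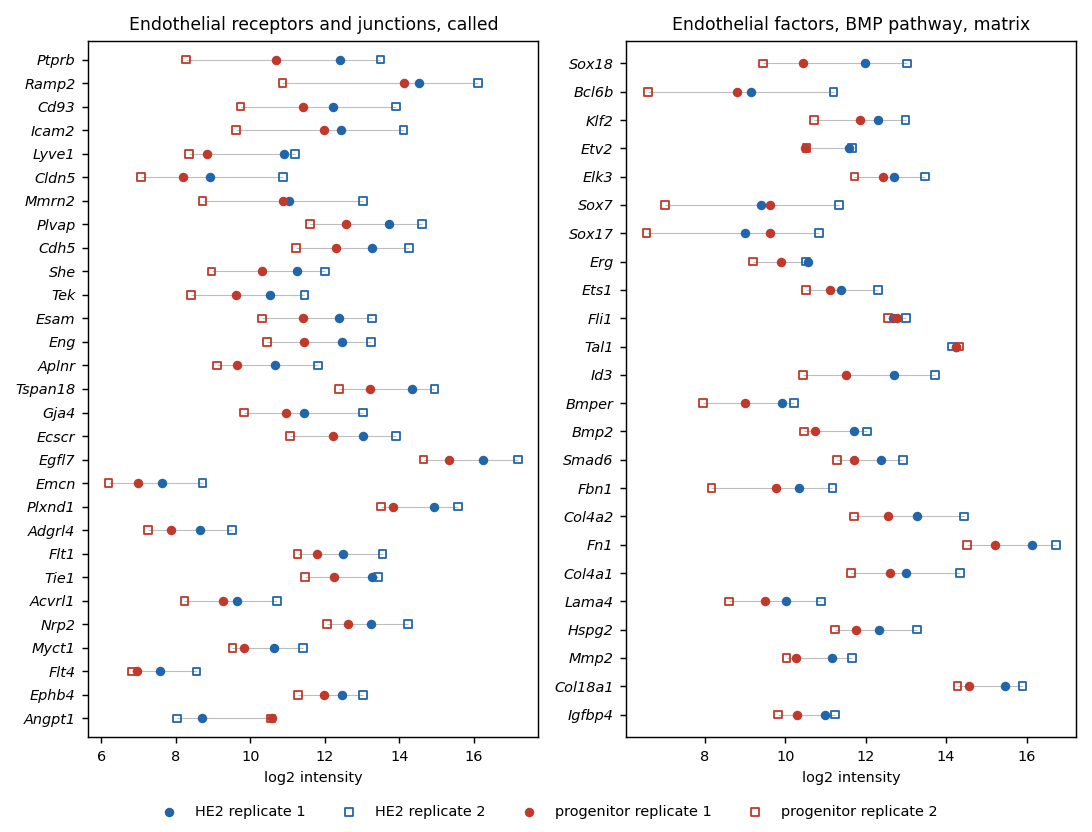
Log2 intensity of endothelial genes on each of the 4 arrays, with 1 row per gene. The left panel holds the 29 receptors and junction genes that were called. The right panel holds endothelial transcription factors with genes of the BMP pathway and of the matrix, among which Sox7, Sox17, Erg, Ets1, Fli1 and Tal1 were not called. In most rows the open blue square (HE2 replicate 2) is rightmost and the open red square (progenitor replicate 2) leftmost, and Angpt1 runs the other way.

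Of 24 transcription factors of the vascular program, 5 fell and none rose, with a median difference of -0.68. Sox18, a SoxF factor of arterial and lymphatic endothelium, read 11.98 and 13.03 in HE2 and 10.44 and 9.44 in progenitors and fell 5.92-fold (limma, adjusted p = 0.00553). Its relatives Sox7 and Sox17 had similar differences, -2.06 and -1.83, but were not called (limma, adjusted p = 0.198 and 0.306). For Sox17 the arrays read 9.0 and 10.83 in HE2 and 9.61 and 6.55 in progenitors, so that the groups overlapped. Etv2, the ETS factor that starts the blood and endothelial program in mesoderm, had close replicates, 11.59 and 11.66 against 10.48 and 10.53. It fell 2.17-fold (limma, adjusted p = 0.000371). Bcl6b, a repressor of endothelial cells, fell by 2.49, Klf2, which responds to blood flow, by 1.36, and the ETS factor Elk3 by 1.01. Other probes of Elk3 differed by -0.95 and -0.32. Erg, an ETS factor that maintains endothelium, fell just short of 2-fold, with 10.57 and 10.51 against 9.9 and 9.19, a difference of -0.99. Tal1, which blood and endothelium share, read 14.24 and 14.15 and 14.25 and 14.33, a difference of 0.1, and Fli1 differed by -0.18. Between 2 and 10 members of the list were called when 1 array was left out, 2 of them without progenitor replicate 2 and 10 without progenitor replicate 1. Sox18 and Etv2 were called in every such fit.

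In the BMP and TGF-beta pathway, 6 of 26 genes fell and none rose, with a median of -0.38. The falls included a ligand, receptors, an inhibitor and a target. Bmp2, a ligand, read 11.7 and 12.03 in HE2 and 10.73 and 10.47 in progenitors and fell 2.4-fold (limma, adjusted p = 0.000278). The receptor genes Eng and Acvrl1, both also counted among the endothelial receptors, fell by 1.91 and 1.42. Smad6, an intracellular inhibitor of BMP signaling, read 12.38 and 12.93 against 11.71 and 11.28 and fell by 1.16, and Bmper, a secreted BMP-binding protein, fell by 1.58. Id3, a direct target of the pathway, read 12.71 and 13.73 in HE2 and 11.52 and 10.44 in progenitors and fell 4.72-fold. Its relative Id1 read 12.16 and 12.69 against 12.43 and 11.9, a difference of -0.26 that was not called. Without HE2 replicate 2 or without progenitor replicate 2, 4 genes of the list fell, and Acvrl1 and Smad6 lost their calls.

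Of 20 genes of the Notch pathway, 1 rose and 1 fell, with a median of -0.15. Nrarp, a target that feeds back on Notch, read 8.68 and 8.88 in HE2 and 7.85 and 7.45 in progenitors and fell 2.19-fold. Jag1, a ligand, read 9.22 and 9.21 against 10.37 and 10.18 and rose 2.08-fold. Notch1 differed by -0.12. Notch4, the receptor of endothelium, differed by -1.34 and was not called, with HE2 arrays at 8.37 and 10.34. Both calls were lost when 1 of the 4 arrays was left out.

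Matrix genes fell more often than they rose. Of 50 extracellular matrix genes, 9 fell and 1 rose, with a median of -0.23. Col4a1 and Col4a2, the main collagen chains of basement membrane, fell by 1.56 and 1.73. Col4a2 read 13.27 and 14.45 in HE2 and 12.56 and 11.7 in progenitors. Lama4, a laminin chain of vessels, fell by 1.4, Hspg2, which encodes perlecan, by 1.3, and Col18a1 by 1.25. Another probe of Hspg2 differed by -0.49. Fn1, which encodes fibronectin, read 16.13 and 16.73 against 15.22 and 14.52 and fell by 1.56. Fbn1 (-1.79), the protease gene Mmp2 (-1.26) and Igfbp4 (-1.05) completed the falls. The rise was that of Thbs1, also a platelet gene, by 1.13. Fibrillar Col1a1 differed by 1.39 and was not called, with arrays at 11.8 and 9.12 in HE2. The count of falls was 3 without HE2 replicate 2 and 3 without progenitor replicate 2, and Col18a1, Col4a2 and Mmp2 were called in every fit that left out 1 array.

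Of 24 integrin chains, 5 rose and 1 fell, with a median of 0.09. They included chains typical of leukocytes. Itgax, the alpha chain of CD11c, read 6.19 and 6.38 in HE2 and 7.61 and 8.69 in progenitors and rose by 1.86. Itgb7 read 7.22 and 7.12 against 8.54 and 9.15, a rise of 1.68, and Itgb2, the shared beta chain of leukocytes, rose by 1.33. Itga4, which pairs with Itgb7, rose by 1.35, and Itgb5 by 1.39. Itga9 fell by 1.08. Itgam, the alpha chain of the macrophage marker CD11b, differed by -0.61 and was not called. The count of rises was 3 without HE2 replicate 2, and Itgax, Itgb2 and Itgb7 were called in every fit that left out 1 array.

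Among 32 transcription factors of blood, 6 rose and 1 fell, with a median of 0.39. All 6 rises were of lineage factors. Klf1, the erythroid Krüppel-like factor, read 9.12 and 7.98 in HE2 and 11.05 and 12.46 in progenitors and rose 9.22-fold (limma, adjusted p = 0.0148). Gata1, which directs red cell and megakaryocyte genes, went from 11.29 and 11.17 to 13.83 and 14.66, 8.08-fold (limma, adjusted p = 0.032). The progenitor arrays of both genes lay above both HE2 arrays. Cebpe, a factor of maturing granulocytes, read 6.91 and 6.5 against 8.51 and 8.61 and rose 3.62-fold (limma, adjusted p = 6.46e-05). Spi1, which encodes PU.1, the main factor of myeloid cells, read 8.09 and 7.65 against 9.14 and 9.07 and rose 2.35-fold. Irf8, a factor of monocytes, rose by 1.72, and Cebpa by 1.18. Gfi1 was the member that fell, from 11.66 and 11.24 in HE2 to 10.44 and 9.93 in progenitors, 2.4-fold (limma, adjusted p = 0.0836). All 6 rises were called in every fit that left out 1 array, and the fall of Gfi1 was not.

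Unlike Gfi1, other factors of the transition were not called. Runx1 read 12.96 and 12.54 in HE2 and 13.16 and 13.41 in progenitors, a difference of 0.54 ± 0.32 (limma, adjusted p = 0.516). Gfi1b, the close relative of Gfi1, differed by 0.82 and Myb by 0.79. Gata2 read 11.85 and 11.85 against 11.18 and 11.07, a difference of -0.72, and Lyl1 differed by -0.45, Lmo2 by 0.46 and Meis1 by 0.1. Nfe2 differed by 1.21, more than 2-fold, with a limma p of 0.0408.

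Red cell genes rose in the progenitors. Of 31 genes of the erythroid membrane, iron supply and regulation, 16 rose and none fell, with a median of 1.01. Apart from Klf1 and Gata1, the largest rises were those of Kel, a blood group membrane protein, from 7.23 and 6.5 to 8.77 and 10.25 (6.25-fold; limma, adjusted p = 0.00505), and of Tmod1, which caps actin in the membrane skeleton, from 7.14 and 6.48 to 8.82 and 10.02 (6.11-fold). Trim10 rose by 2.01. Epor, the erythropoietin receptor gene, read 11.75 and 11.57 in HE2 and 12.96 and 13.84 in progenitors and rose 3.34-fold (limma, adjusted p = 0.0047). Tfr2, a transferrin receptor gene, rose by 1.67 and Slc25a37, which carries iron into mitochondria, by 1.02. Another probe of Slc25a37 differed by 0.38. Other rises were those of Cited4 (2.02), Slc14a1 (1.94), Icam4 (1.7), Add2 (1.47), Epb42 (1.3) and Ank1 (1.01). Aqp1, a water channel that red cells and endothelium share, stood lowest in the list with a difference of -2.07, which was not called. Slc4a1, which encodes the anion exchanger of mature red cells, differed by 0.76. In fits without 1 array, 11 to 19 members rose, and Klf1, Gata1, Kel, Tmod1, Trim10, Epor, Icam4 and Tfr2 were among those called in each.

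Globin genes had large differences and few calls, with HE2 arrays that themselves lay far apart. All 9 genes tested were higher in the mean of progenitors, with a median difference of 2.19, yet 1 was called. Hba-a2, an adult alpha globin gene, read 15.27 and 12.47 in HE2 and 16.49 and 18.23 in progenitors, a difference of 3.49 ± 1.43 (limma, adjusted p = 0.274). Hba-x, the embryonic zeta globin gene, read 14.06 and 11.08 against 14.58 and 16.83, a difference of 3.13. Hbb-bh1, an embryonic beta-like globin gene, read 16.59 and 15.47 against 17.75 and 18.7. In these 3 genes HE2 replicate 2 was lowest and progenitor replicate 2 highest. The gene called was Hbb-bs, an adult beta globin, which read 7.88 and 6.75 against 8.43 and 10.28 and rose by 2.04, a call that was lost when 1 array was left out. Probes of near-identical globin genes can read each other's RNA, so that values of single globin genes are uncertain. Of 9 heme enzymes, 1 rose and none fell, with a median of 0.60. Alas2, the erythroid enzyme of the first step, rose by 1.89 (limma, adjusted p = 0.12), a call that was lost when 1 array was left out.

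The promoters of the genes with the largest rise in the globin list, called or not, and in the blood factor list are shown with that of Epor, 250 bases before the start as in RefSeq, GRCm38.p6. Epor and Tek were chosen after their values were seen. Capitals mark words found on either strand, printed as they read on the strand shown. A GATA word is AGATAA, or TGATAA in its second form. A RUNX word is TGTGGT, or TGCGGT in its second form. An E-box is CAGCTG, or CAGATG in its second form. Of all promoters of the table, 18.6% held a RUNX word and 25.5% an E-box. No match overlapped another. Hba-a2 (chr11:32296242-32296491, plus strand) holds a GATA word 186 bases before its start.
Hba-a2: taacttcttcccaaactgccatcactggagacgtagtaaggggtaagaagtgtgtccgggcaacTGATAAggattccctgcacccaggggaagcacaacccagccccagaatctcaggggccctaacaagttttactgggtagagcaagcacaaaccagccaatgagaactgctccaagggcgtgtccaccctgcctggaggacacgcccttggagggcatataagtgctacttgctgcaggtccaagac
Klf1 (chr8:84901732-84901981, plus strand) holds RUNX, GATA and E-box words, which start 133, 80 and 59 bases before its start.
Klf1: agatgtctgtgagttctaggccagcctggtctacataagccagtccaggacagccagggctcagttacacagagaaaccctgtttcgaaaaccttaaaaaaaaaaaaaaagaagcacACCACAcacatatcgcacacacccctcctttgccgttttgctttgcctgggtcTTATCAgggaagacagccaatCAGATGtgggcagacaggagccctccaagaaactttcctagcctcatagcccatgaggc
Epor (chr9:21963577-21963826, minus strand) holds E-box, RUNX and GATA words, which start 219, 166 and 54 bases before its start.
Epor: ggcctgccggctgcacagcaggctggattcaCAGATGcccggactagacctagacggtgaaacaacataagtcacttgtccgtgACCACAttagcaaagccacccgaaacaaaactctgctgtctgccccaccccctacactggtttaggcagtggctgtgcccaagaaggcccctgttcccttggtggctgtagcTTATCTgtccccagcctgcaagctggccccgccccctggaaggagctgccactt
Gfi1, the blood factor that fell, has 2 entries in the table (chr5:107725806-107726055 and chr5:107724344-107724593, both minus strand), and neither window holds one of these words or a SOX word. An ETS word, which is GGAAGT, or CGGAAG in its second form, was absent as well, and so was a CACC box, which is CCACACCC, or CCGCACCC in its second form. The window next to the more upstream start is shown as the contrast.
Gfi1: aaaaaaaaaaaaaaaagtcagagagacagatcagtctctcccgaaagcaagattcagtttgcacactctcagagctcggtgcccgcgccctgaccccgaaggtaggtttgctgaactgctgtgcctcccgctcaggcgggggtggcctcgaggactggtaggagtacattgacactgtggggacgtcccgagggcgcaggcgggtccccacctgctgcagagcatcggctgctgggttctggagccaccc

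Over the lists, GATA words stood in 7 of the 13 promoters found for the red cell genes that rose (53.8%), which belong to 11 genes. They stood in 16.6% of all promoters of the table and in 13.7% of those of genes tested. They stood in 18.3% of 334 promoters of all genes that rose and in 10.9% of 220 promoters of all genes that fell. ETS words stood in 8 of 17 promoters of the endothelial receptors that fell (47.1%), which belong to 15 genes, against 27.2% of all promoters. For the leukocyte genes that rose it was 9 of 18 promoters (50%), which belong to 13 genes. The ETS share was 30.4% for promoters of genes tested, 31.1% for those of all genes that rose and 30% for those of all genes that fell. CACC boxes stood in 9.28% of the promoters of genes that rose and 4.68% of all, beside 7.27% of those of genes that fell and 5.35% of those of all genes tested. These shares describe letters in a window and were not tested. Ptprb, Angpt1 and Sox18 matched no entry.

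Genes of granulocytes and macrophages rose in the progenitors. Of 40 tested, 17 rose and 1 fell, with a median of 0.92. Among these rises, Spi1, Cebpa, Cebpe and Irf8 are also counted with the blood factors, and Ccr2 and Csf2rb with the cytokine receptors. Tyrobp, the adaptor of activating receptors, read 10.55 and 10.01 in HE2 and 13.04 and 13.51 in progenitors and rose 7.97-fold (limma, adjusted p = 0.00138). Cd14, a receptor for bacterial lipopolysaccharide, went from 7.98 and 7.51 to 10.29 and 10.8, 6.96-fold (limma, adjusted p = 0.000179). Subunits of the phagocyte oxidase followed, with Ncf1 at 7.58 and 7.62 against 9.9 and 10.45 and a rise of 2.58, and Ncf4 with a rise of 2.42. Receptors for chemokines rose too. Cx3cr1 read 6.98 and 6.97 against 8.76 and 10.08 and rose by 2.44, and Ccr2 rose by 2.07. Ms4a3, a gene of granulocyte and monocyte progenitors, rose by 1.88, the antibody receptor subunit gene Fcer1g by 1.77, the Fc receptor gene Fcgr3 by 1.52 and the granule protease gene Prtn3 by 1.19. Fcgr2b was not well above background on either HE2 array and was at least 2.56-fold higher in progenitors.

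Granule and growth factor receptor genes that define the lineage were less clear. Mpo, which encodes myeloperoxidase, read 14.14 and 12.7 in HE2 and 15.13 and 14.67 in progenitors, a difference of 1.48 (limma, adjusted p = 0.199). Elane, the elastase gene, differed by 0.12, Csf1r, the receptor of macrophage growth factor, by 0.93 and Lyz2 by 0.4, and none was called. Mrc1, the mannose receptor gene, which some endothelium also carries, was the member that fell, from 8.56 and 9.08 to 8.12 and 6.17, with a call lost when 1 array was left out. All 17 rises were called in every fit that left out 1 array.

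Genes of leukocyte signaling and the cortical cytoskeleton rose in the progenitors. Of 40 genes, 21 rose and none fell, with a median of 1.2. Itgb2 among them is also counted with the integrins. Arhgap9, a regulator of small GTPases, rose by 2.83, and Cd52, a small surface glycoprotein of leukocytes, by 2.67. Cytip, which binds cytohesins, read 7.2 and 7.12 against 9.56 and 10.08 and rose 6.32-fold (limma, adjusted p = 2.93e-05). Coro1a, an actin-binding coronin, read 10.85 and 10.71 against 13.0 and 13.59 and rose 5.72-fold. The GTPase gene Rac2 rose by 2.17. Kinases of receptor signaling rose with them, Btk by 1.86 and Syk by 1.67, and the exchange factor gene Vav1 by 1.32. Syk had nearly equal replicates, 10.97 and 10.99 in HE2 and 12.48 and 12.82 in progenitors. Ptprc, which encodes the pan-leukocyte marker CD45, read 6.81 and 7.15 against 8.31 and 9.02 and rose 3.21-fold (limma, adjusted p = 0.00856). Was, the actin regulator lost in Wiskott-Aldrich syndrome, read 12.78 and 12.69 and 12.72 and 12.62, a difference of -0.07. Of the 21 rises, 20 were called in every fit that left out 1 array, the exception being Ptpn6.

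**Figure D3:**
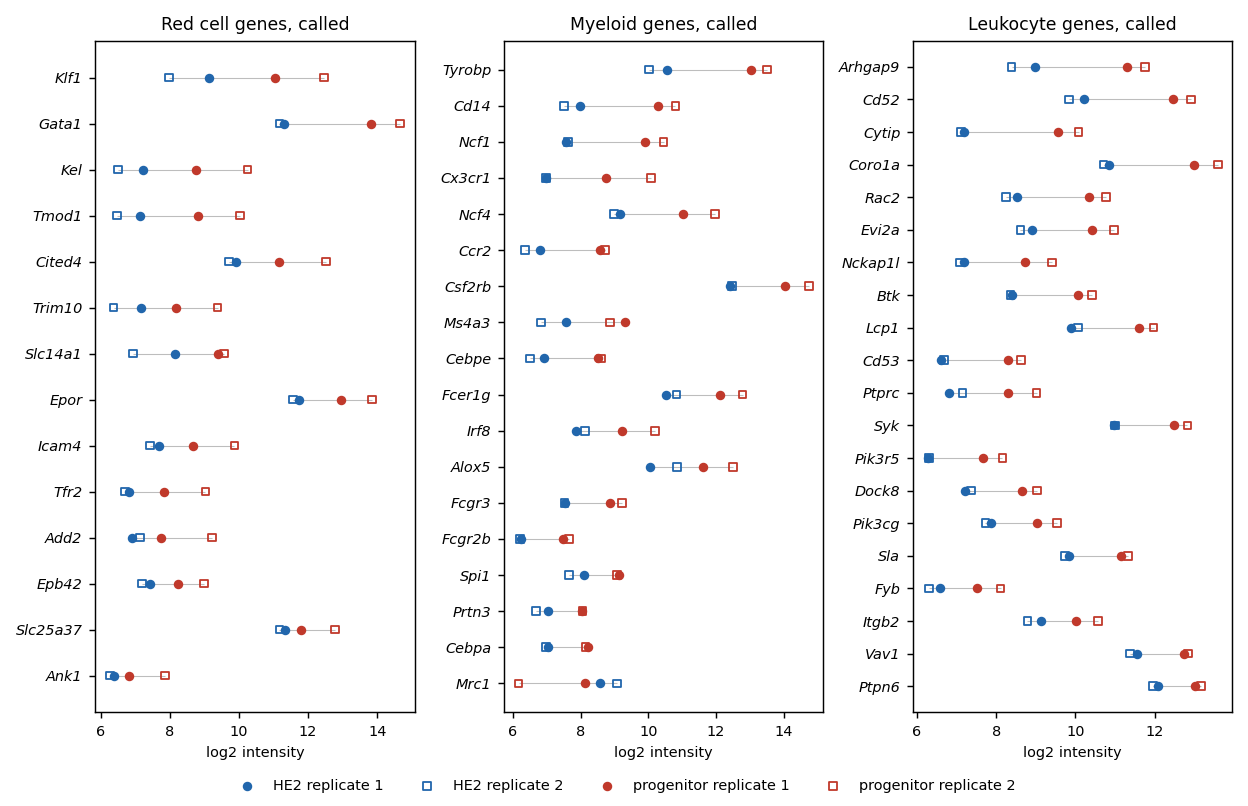
Log2 intensity on each of the 4 arrays of called members of the red cell, myeloid and leukocyte lists, with 1 row per gene. Red symbols (progenitors) lie to the right of blue symbols (HE2) in every row except Mrc1, the myeloid gene that fell. In the red cell panel the open red square (progenitor replicate 2) is rightmost in every row.

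Of 32 platelet genes, 7 rose and 2 fell, with a median of 0.22. Rgs18, a regulator of G proteins, read 8.63 and 7.93 in HE2 and 10.06 and 10.1 in progenitors and rose 3.48-fold. Tubb1, the platelet tubulin, rose by 1.51, and of the chains of the receptor for von Willebrand factor, Gp5 rose by 1.34, Gp9 by 1.08 and Gp1bb by 1.09. Gp1ba, the chain that binds that factor, differed by 0.23 and was not called. Other probes of Gp1bb differed by 0.005 and 0.315. Plek rose by 1.05, and Thbs1 as given above. Pdgfb, which endothelium also makes, fell by 1.5, and Alox12 by 1.03. Further probes differed by -0.965 for Pdgfb and -0.43 for Alox12. Pf4, platelet factor 4, read 10.86 and 10.62 and 10.4 and 10.85, a difference of -0.12. Itgb3 differed by 0.28. The count of rises was 4 without HE2 replicate 2 and 3 without progenitor replicate 2, and Gp5, Rgs18 and Tubb1 were called in every fit that left out 1 array.

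Of 15 mast cell and basophil genes, 3 rose, with a median of 0.08. Srgn, the core protein of granule proteoglycan, which other blood cells also make, read 9.09 and 8.9 in HE2 and 11.31 and 11.7 in progenitors and rose 5.7-fold (limma, adjusted p = 2.93e-05). Hdc, which encodes the enzyme that makes histamine, rose by 1.76, from 7.31 and 7.3 to 9.23 and 8.9. Il1rl1, the receptor for interleukin 33, rose by 1.38, whereas its other probes differed by 0.24 and 0.51. Cpa3, a mast cell protease gene, differed by 0.89 and was not called.

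Among 32 cytokine and chemokine receptors and ligands, 7 rose and none fell, with a median of 0.24. Beside Epor, Il1rl1 and Ccr2, these were Il10ra, the interleukin 10 receptor gene, from 7.4 and 7.64 to 9.61 and 9.94 (2.25), Il6ra (1.33) and a pair of beta chains for interleukin 3 and related cytokines. Csf2rb read 12.41 and 12.46 in HE2 and 14.02 and 14.74 in progenitors, and Csf2rb2 rose by 2.03. Since these beta chain genes are near-identical, their separate values are uncertain. All 7 were called in every fit that left out 1 array.

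Cell division genes differed little. Of 40 genes of DNA replication and mitosis, none rose or fell, the median was 0.06, and the differences ran from -0.34 to 0.36. Mki67 read 15.03 and 15.02 in HE2 and 15.14 and 15.39 in progenitors, a difference of 0.24. Pcna differed by 0.04 and Cdk1 by -0.04. None of 12 cyclin D genes and inhibitors of cyclin-dependent kinases was called, with a median of -0.12. Ccnd1 differed by -1.32 with HE2 arrays at 11.43 and 13.47 and progenitor arrays at 11.16 and 11.1, so that 1 HE2 array stood apart. Of 11 genes for factors of epithelial-mesenchymal transition, cadherins and vimentin, Cdh5 was the 1 called. Vim read 16.31 and 16.85 against 16.04 and 15.43, a difference of -0.84, and Zeb2 differed by 0.25.

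**Figure D4:**
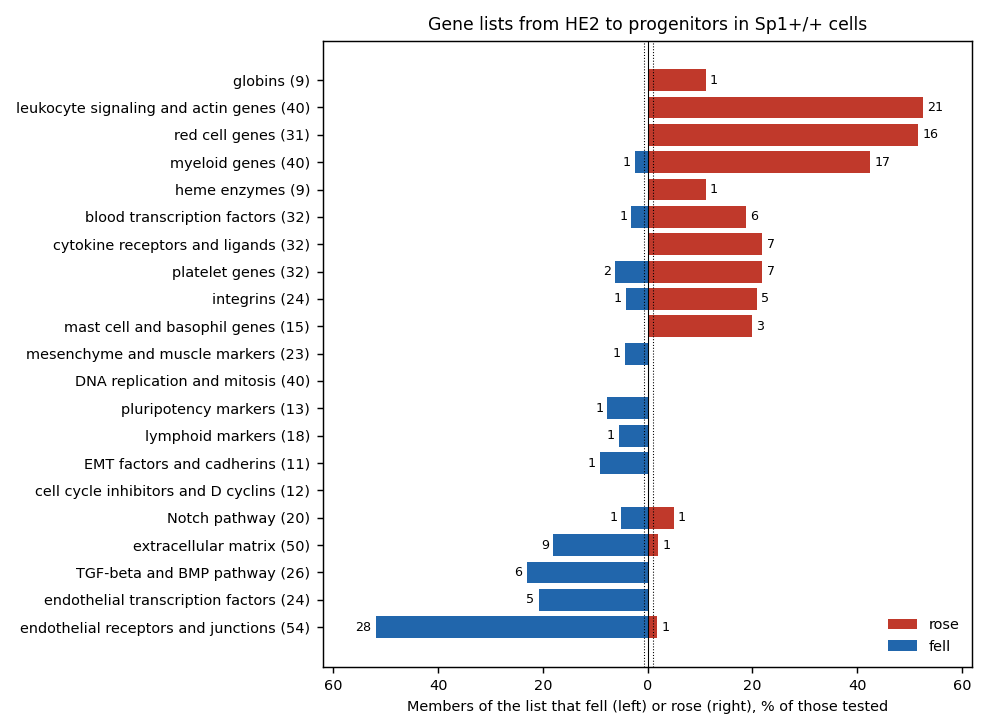
Share of the tested members of each gene list that rose (red, to the right) or fell (blue, to the left) from HE2 to progenitors, in percent, with the number of genes beside each bar and the number tested in parentheses. Dotted lines mark the shares among all genes tested, 1.02% for rises and 0.727% for falls. Rises are most frequent among leukocyte, red cell and myeloid genes and falls among endothelial receptors, with no call among cell division genes.

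Markers of cells that the gates should not hold were read on the same arrays. Of 23 mesenchyme and muscle genes, 1 fell, the heart factor gene Hand2 (by 1.64), and none rose. The summed level of the list was 17.53 and 16.52 in HE2 and 17.73 and 17.29 in progenitors. Acta2, smooth muscle actin, read 16.57 and 15.09 in HE2 and 16.81 and 16.24 in progenitors, and Tagln 15.78 and 14.8 and 15.94 and 15.65, so that these genes were measured on every array and lowest in HE2 replicate 2. Pdgfra read 6.68 and 6.6 and 6.62 and 6.51. Of 13 pluripotency genes, 1 fell, Tbx3 (by 1.61), which other tissues also use, and the summed level was 12.89 and 13.26 against 12.56 and 12.24. Pou5f1 read 6.57 and 6.59 and 6.56 and 6.55. Of 18 lymphoid genes, 1 fell, Ebf1, by 1.24, with summed levels of 13.44 and 13.31 against 13.27 and 13.13. Rag1 was not well above background on any of the 4 arrays. The part of other cells in the results was not tested.

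The replicates were not equally far apart. In all 28 endothelial receptors that fell, the order from high to low was HE2 replicate 2, HE2 replicate 1, progenitor replicate 1 and progenitor replicate 2. Over all genes that fell, 233 of 270 had that order, and over all genes tested 2931 of 37154. All 270 had groups that did not overlap, which the call favors and which 45.9% of all genes tested had in either direction. The median difference over the 28 was -0.80 between the replicate 1 arrays and -2.81 between the replicate 2 arrays. For the whole list of endothelial receptors, the summed level on the HE2 arrays was 18.16 and 19.09, against 17.41 and 16.60 on the progenitor arrays. The 16 red cell genes that rose had a median difference of 1.02 between replicate 1 arrays and 2.72 between replicate 2 arrays, and the summed globin level was 17.45 and 15.85 in HE2 and 18.53 and 19.93 in progenitors. Leukocyte genes that rose depended less on the replicate, with medians of 1.52 and 1.91, as did myeloid genes, with 1.60 and 2.07. HE2 replicate 1 thus lay nearer to the progenitors than HE2 replicate 2 did, in endothelial receptors and in the summed globin level. Of the 16 red cell genes that rose, 15 were higher in HE2 replicate 1. Their median gap was 0.25 between the HE2 arrays and 1.2 between the progenitor arrays. Over all 31 red cell genes, HE2 replicates 1 and 2 had summed levels of 16.79 and 16.89 and medians of 8.15 and 7.58. Over all probes, HE2 replicate 1 correlated with progenitor replicate 1 (r = 0.9944) about as closely as with HE2 replicate 2 (r = 0.9937), and HE2 replicate 2 with progenitor replicate 2 least (r = 0.9873).

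For the same genes, the earlier step from HE1 to HE2 is set side by side. Both comparisons use the HE2 arrays, so that their values are not independent. From HE1 to HE2, 1.08% of all genes rose and 2.22% fell. Of the 54 endothelial receptors, 22 fell and 1 rose from HE1 to HE2, with a median of -1.18, beside -1.37 from HE2 to progenitors. Tek differed by -1.44 and then -1.98, Cdh5 by -1.28 and then -2.0 and Ptprb by -1.33 and then -3.48. At the first step Tek, Cdh5 and Ptprb were not called (limma, adjusted p = 0.0947 for Cdh5 and 0.2265 for Ptprb). Lyve1 ran otherwise, with 1.05 at the first step and -2.46 at the second, and Gad2 with 0.29 and then -2.42. Of the 32 blood factors, 13 rose and none fell from HE1 to HE2. Runx1 differed by 3.19 from HE1 to HE2 and by 0.54 from HE2 to progenitors, Myb by 3.38 and 0.79, Gfi1b by 3.44 and 0.82 and Nfe2 by 3.88 and 1.21. Gfi1 differed by 1.18 and then fell by 1.26. Platelet genes rose in 18 of 32 at the first step, with a median of 1.29, and in 7 at the second, with 0.22. Itgb3 differed by 4.19 and then 0.28. Red cell genes had the opposite weight, with 4 rises of 31 and a median of 0.26 at the first step and 16 rises and a median of 1.01 at the second. Matrix genes fell in 18 of 50 at the first step and in 9 at the second.

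**Figure D5:**
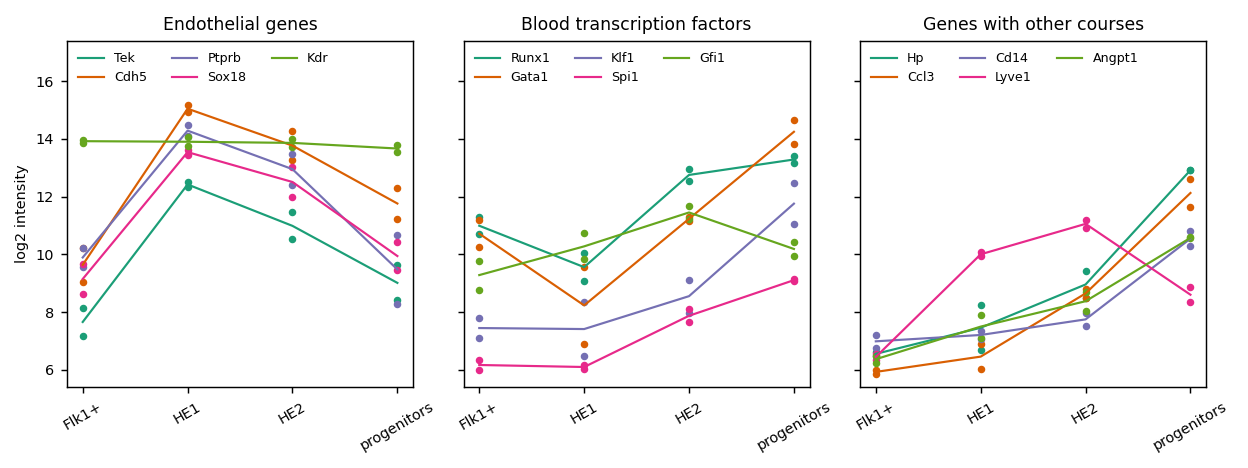
Log2 intensity of selected genes in Flk1+ cells, HE1, HE2 and progenitors of Sp1+/+ cells, with 1 point per array and lines through the means of 2 arrays. In the means, Tek, Cdh5, Ptprb and Sox18 are highest in HE1 and lower in each later population, while the line of Kdr is nearly flat. The differences of Tek, Cdh5, Ptprb and Sox18 from HE1 to HE2 were not called. Runx1 is higher in HE2 than in HE1, Klf1 and Gata1 are highest in progenitors, Lyve1 and Gfi1 are highest in HE2, and Hp, Ccl3, Cd14 and Angpt1 are highest in progenitors.

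The same step in Sp1-/- cells was measured on the other slide, so that genotype and slide cannot be told apart. The gene that was altered, Sp1, read 12.14 and 12.48 in HE2 and 12.16 and 12.33 in progenitors of Sp1+/+ cells. In Sp1-/- cells, Sp1 read 9.44 and 10.06 in HE2 and 9.29 and 9.41 in progenitors, so that every Sp1-/- array lay below every Sp1+/+ array, and where its probe lies relative to the removed part was not determined. From HE2 to progenitors in those cells, 2.33% of all genes rose and 2.67% fell. Of the endothelial receptors, 35 of 54 fell and none rose, with a median of -1.78 beside -1.37 in Sp1+/+ cells. Tek differed by -2.73 beside -1.98, with no difference between genotypes past the threshold (limma interaction, adjusted p = 0.762). Of the red cell genes, 24 of 31 rose in Sp1-/- cells, with a median of 2.56 beside 1.01. Leukocyte genes had 19 rises of 40 in Sp1-/- cells, with a median of 0.91 beside 1.2. Myeloid genes had 18 rises of 40, with a median of 0.72 beside 0.92. Markers of other cells moved at the same step in Sp1-/- cells. Of the 23 mesenchyme and muscle genes, 10 fell and none rose, with a median of -1.0 beside 0.06, and 5 differed between genotypes (limma interaction, adjusted p of 0.05). Over all 37154 genes tested, 111 positive and 110 negative interactions passed that adjusted p with at least a 2-fold difference. The counts for the lists required no 2-fold difference, and the number of all genes that passed without it was not counted. The list counts thus have no like share of all genes beside them. Acta2 differed by -2.92 beside 0.69 (limma interaction, adjusted p = 0.0366) and Tagln by -2.88 beside 0.51 (limma interaction, adjusted p = 0.00981). Of the 50 matrix genes, 26 fell and 1 rose, with a median of -1.14 beside -0.23, and 10 differed between genotypes. The part of such cells in the values of the other lists was not tested. Spi1 differed by 0.22 in Sp1-/- cells and rose by 1.24 in Sp1+/+ cells (limma interaction, adjusted p = 0.073). Kit differed by -1.07 and 0.04 (limma interaction, adjusted p = 0.443).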

How the data were processed

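Total RNA of sorted cells was labelled with Cy3 and hybridized to Agilent SurePrint G3 Mouse 8x60K arrays. Per the file headers, each genotype had a slide of its own, with replicate 1 arrays in one row of the slide and replicate 2 arrays in the other. The scanner's spot and local background intensities, deposited by the authors, came from Agilent Feature Extraction, version 10.7.1.1 per the labels and 10.7.3.1 per the file headers. The deposited log2 values were background-corrected by limma's normexp method and quantile-normalized by the authors. Computation from the deposited intensities matched them to within 0.0258 with an offset of 50, against differences of up to 1.63 with the offset of 16 that the methods state. An offset of 50 raises dim probes and so shrinks their differences.

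The deposited log2 values were used. Of 37932 target names of 55681 probes, 20869 were given a symbol through a RefSeq table (assembly GRCm38.p6). Spots of 1 probe were averaged, control spots left out and spots marked as outliers (103 to 170 per array of the 4) set to missing. The probe with the highest mean over 16 arrays stood for a gene, and genes with a log2 value of 6 or more on at least 1 array were tested. That cutoff lies near the floor of these values and left out few genes, with 37208 tested without it and 37154 with it. limma 3.58.1 in R 4.3.3 fitted the 8 groups in 1 model, which leaves 8 degrees of freedom for the residuals, with variances moderated over genes. Calls required an unadjusted limma p of at most 0.01 and a 2-fold change, with Benjamini-Hochberg adjustment over all genes given beside them. The interaction compared the step between genotypes. Where a group was not well above background on any of its arrays, a lower bound of the fold is given. The fit was tested on simulated data.

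Genes were named from 22 lists, by the size of their change (up to 6 that rose and 6 that fell), with defining genes whatever their value, beside the 15 largest rises and 15 largest falls with a symbol. Those 15 were called genes whose groups did not overlap and whose brighter group was well above background, without predicted, clone or numbered names. The 2 groups, the lists and the tests were chosen with earlier results of these data known. Alternatives were the background correction, the filter, the probe rule, the arrays in the fit, the replicate number, the threshold and the test. Some genes of the lists are not reported here by name, although the counts and medians include them. The number of arrays limits the precision.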

Additional observations from a re-analysis of the deposited data

Results flagged for a closer look

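Of the genes whose change is given, 8 had a change from HE2 to progenitors that differed between Sp1-/- and Sp1+/+ cells at an adjusted p of 0.05 (limma interaction over all genes). Genotype and slide cannot be told apart, and 2 arrays stand behind each group. These 8 are of 170 genes named with values, and no 2-fold difference was required of them. The number of all genes that passed by the same rule was not counted, so that the 8 have no like share beside them. Over all 37154 genes tested, 111 positive and 110 negative interactions passed that adjusted p with at least a 2-fold difference. The 3 red cell genes had a larger change in Sp1-/- cells. Slc4a1 differed by 4.04 there and by 0.76 in Sp1+/+ cells, a difference of 3.29 (limma, adjusted p = 0.0143). Slc25a37 differed by 3.31 and 1.02, a difference of 2.28 (limma, adjusted p = 0.0135). Add2 differed by 4.0 and 1.47, a difference of 2.54 (limma, adjusted p = 0.0498). The 2 myeloid genes had a smaller change in Sp1-/- cells. Cebpe differed by 0.67 there and by 1.85 in Sp1+/+ cells, a difference of -1.19 (limma, adjusted p = 0.0262), and Fcgr3 by 0.61 and 1.52, a difference of -0.91 (limma, adjusted p = 0.0481). Acta2 and Tagln, genes of smooth muscle, fell in Sp1-/- cells and were not called in Sp1+/+ cells. Acta2 differed by -2.92 there and by 0.69 in Sp1+/+ cells, a difference of -3.61 (limma, adjusted p = 0.0366), and Tagln by -2.88 and 0.51, a difference of -3.38 (limma, adjusted p = 0.00981). Itga9 differed in opposite directions, by 1.04 in Sp1-/- cells and -1.08 in Sp1+/+ cells, a difference of 2.12 (limma, adjusted p = 0.0366). The adjusted p of the difference rose above 0.05 in at least 1 alternative for Acta2 (up to 0.15), Add2 (up to 0.378), Cebpe (up to 0.173), Fcgr3 (up to 0.121), Itga9 (up to 0.0898) and Slc4a1 (0.0565). Slc25a37 and Tagln stayed below it in all that were run.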

How the results depend on the processing

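Without 1 of the 4 arrays, 396 to 973 genes were called, 283 to 507 rose and 113 to 536 fell, and the single array in the group was assumed to vary like the other groups. The falls were 536 without HE2 replicate 1, 134 without HE2 replicate 2, 403 without progenitor replicate 1 and 113 without progenitor replicate 2. In every one of these fits, 245 of the 379 rises and 93 of the 270 falls were called. The scanner's processed signal, scaled to each array's 75th percentile, gave 1053 calls (594 rose, 459 fell). With only the 4 arrays compared, 143 genes fell and 351 rose. At an adjusted p of 0.01, 310 were called (235 rose, 75 fell). The methods' t-test, which is stated there for comparing genotypes and not for the array fit, called 79 (69 rose, 10 fell), and after Benjamini-Hochberg adjustment 0 (0 rose, 0 fell), with 4174 genes at an unadjusted p under 0.05 and limma calling 649. With the other alternatives from the plan, the calls stayed within 1.5 times of 649. Directions of named genes that turned were those of uncalled ones: Elane (-0.21 to 0.45 without 1 array, -0.21 without HE2 replicate 2), Acta2 (-0.047 to 1.43, the former without HE2 replicate 2), Angpt2 (-0.525 to 0.155, the latter without HE2 replicate 2), Gp1ba (-0.01 to 0.48, the former without progenitor replicate 2) and Id1 (-0.525 to 0.005, the latter without HE2 replicate 2 or progenitor replicate 2). The cause was not tested.

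The replicate numbers were not shown to pair the arrays, since differences between replicates correlated at -0.152 between HE2 and progenitors. Between HE1 and HE2 they correlated at 0.503, and that step was fitted without a block. With a replicate block, 641 genes were called (381 rose, 260 fell), 631 of them shared with the main calls. With the crossed pairing, chosen after seeing the data, 698 were called (383 rose, 315 fell).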

Other observations

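Further genes of the step, chosen after their values were seen and so given without a test, fell or rose in families. Of 8 Gimap genes, which encode GTPases, 4 fell and none rose, and the 7 well above background had a median of -1.58. Gimap5 read 10.53 and 10.56 in HE2 and 8.73 and 8.41 in progenitors and fell by 1.98, and Gimap1 fell by 2.12 and Gimap8 by 1.57. Of 10 Hoxb genes, which specify position along the body axis, 4 fell and none rose, with a median of -1.04 over the 8 well above background. Hoxb4 read 10.78 and 11.48 against 9.9 and 8.94 and fell by 1.71, Hoxb2 fell by 2.02 and Hoxb3 by 1.18. These and Hoxb5, the 4 that fell, lost their calls without HE2 replicate 2 and again without progenitor replicate 2. Of 20 Ccl chemokine genes, 5 rose and none fell, with a median of 0.75 over the 13 well above background. Beside Ccl3, Ccl6 and Ccl9, these were Ccl4, by 1.27, and Ccl5, by 1.08. Both lost their calls without progenitor replicate 2, which leaves 3 of the 5, and Ccl4 also without HE2 replicate 2 and Ccl5 without HE2 replicate 1.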
